A study of Mus musculus with 2 samples.

Results

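Insulin-like growth factor 1 and the proteins that receive or bind it were followed through the stromal vascular cells (SVCs) of mouse epididymal white adipose tissue (eWAT). The 8 genes, Igf1, Igf1r, Igf2r, Igfbp3, Igfbp4, Igfbp5, Igfbp6 and Igfbp7, were taken by name from a table of 27998 genes, and all 8 were found there. The study profiled SVCs of male C57BL/6J mice by droplet-based RNA sequencing with 10x Chromium 3′ v3 chemistry. Mice received a low-fat diet (LFD) or a high-fat diet (HFD) for 24 weeks from 6 weeks of age. There was 1 library per diet, and the number of mice pooled in each is not given in the sources used here. With 1 library per diet no test between diets was possible, no p-value is given, and the animal, the library and the diet cannot be told apart. All intervals below are 95% intervals that cover counting error only.

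IGF1 is a secreted growth factor that acts through a tyrosine kinase receptor encoded by Igf1r. In adipose tissue it is made by stromal cells and macrophages as well as by adipocytes, and growth hormone raises its transcription. Igf2r encodes the cation-independent mannose 6-phosphate receptor, which takes IGF2 to the lysosome for breakdown and sorts newly made lysosomal enzymes. The IGF binding proteins hold IGFs in the extracellular space, prolong their life and limit or direct their access to the receptor. IGFBP6 prefers IGF2, IGFBP4 is cleaved by the protease PAPP-A to release its ligand, IGFBP5 binds extracellular matrix, and IGFBP7 is a more distant relative with low affinity for IGFs that is deposited around vessels.

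The LFD library held 1113 barcodes and 7356278 unique molecular identifiers (UMIs), and the HFD library held 1144 barcodes and 8412325 UMIs. The libraries shared 0 barcodes. Barcodes with at least 200 genes numbered 1057 on LFD, with a median of 6523 UMIs, and 1117 on HFD, with a median of 6598 UMIs. They were sorted into classes by the raw UMIs of a few genes, and levels are given in CPM, the summed UMIs of a gene per 1000000 UMIs of its class. Fibroblasts (Dcn of at least 10 UMIs) comprised 204 LFD and 207 HFD barcodes, or 19.3% (17.0 to 21.8%) and 18.5% (16.3 to 20.9%). Fibroblasts that also carried at least 3 UMIs of the progenitor genes Pi16, Dpp4 and Sema3c were kept apart as progenitor fibroblasts. They took 173 barcodes on LFD (16.4%, 14.2 to 18.7%) and 84 on HFD (7.52%, 6.04 to 9.23%). Endothelial barcodes (Cdh5 and Cldn5) numbered 98 and 115, and macrophage barcodes (C1qa, C1qb and C1qc) numbered 230 and 321. T cells, with 64 and 19 barcodes, served as the background for stromal transcripts.

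The classes carried the transcripts that mark them. The 5 fibroblast markers, led by Col3a1, summed to 8473 CPM in LFD and 17058 CPM in HFD fibroblasts, against 7.40 and 10.6 CPM in macrophages. The 5 progenitor markers, led by Mfap5, summed to 4071 and 5099 CPM in progenitor fibroblasts, against 1516 and 1795 CPM in the other fibroblasts. In endothelial barcodes they reached 1858 and 1712 CPM, mostly from Ly6c1, so this list did not separate progenitor fibroblasts from vessels. The 5 endothelial markers summed to 3544 and 3588 CPM in the endothelial class. The 5 macrophage markers summed to 3966 and 2996 CPM in macrophages, against 24.8 and 13.8 CPM in fibroblasts. T cell barcodes were not free of them, at 324 CPM on LFD (100 UMIs) and 22.4 CPM on HFD (1 UMI). A mural class (Rgs5, Kcnj8, Abcc9 and Notch3) was left with 5 LFD and 6 HFD barcodes, because barcodes that met the rule of more than 1 class were set aside. Of 65 and 120 such barcodes, 51 and 92 met the endothelial and mural rules and no other class rule. These had medians of 13270 and 9029 UMIs, against 4318 and 3156 in the endothelial class, and are given beside it as endothelial-mural barcodes. They were not free of other transcripts: the 5 fibroblast markers summed to 578 and 944 CPM, against 27.1 and 67.8 CPM in the endothelial class. Scrublet marked 0 of the 51 and 0 of the 92 as doublets, and no other check for doublets was made.

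2 further splits shaped the results. Within the fibroblast classes, 29 LFD and 14 HFD barcodes also carried at least 3 UMIs of the mesothelial genes Msln, Upk3b, Krt19, Lrrn4 and Upk1b, which summed to 6061 and 6022 CPM in them. Of these, 25 and 12 lay in the progenitor class, and this split was chosen after seeing the data. The 29 and 14 barcodes had the progenitor markers at 979 and 1094 CPM, below fibroblasts outside the progenitor class (1516 and 1795 CPM). They had Pdgfra at 27.6 and 12.9 CPM, against 289 and 221 CPM in the whole progenitor class, and 10 and 0 Pi16 UMIs. Most of them thus met the progenitor rule with lower levels of the other progenitor markers, led by Anxa3 (185 and 102 UMIs). All of them are also given apart. Macrophages were divided by resident genes (Timd4, Lyve1 and Cd163) and by lipid-associated genes (Trem2, Cd9, Gpnmb and Spp1). On LFD 175 macrophage barcodes had resident genes alone, 6 had both lists, 49 had neither and 0 had lipid-associated genes alone, with a Clopper-Pearson upper limit of 0.348% of the LFD barcodes. On HFD these numbers were 86, 25, 106 and 104. The classes are ranges of a count, not cell types: 45 HFD macrophages lay below the threshold for lipid-associated genes by less than 2-fold and 49 above it by less than 2-fold. On LFD 13 macrophages lay within that distance below this threshold and 5 above it. For the resident genes, 9 LFD and 14 HFD macrophages lay within it below the threshold, and 25 and 22 above it. For the progenitor genes, 36 LFD and 18 HFD fibroblasts lay within that distance below the threshold, and 37 and 28 above it. The mesothelial threshold had 0 barcodes within 2-fold on either side in both libraries.

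**Figure D1:**
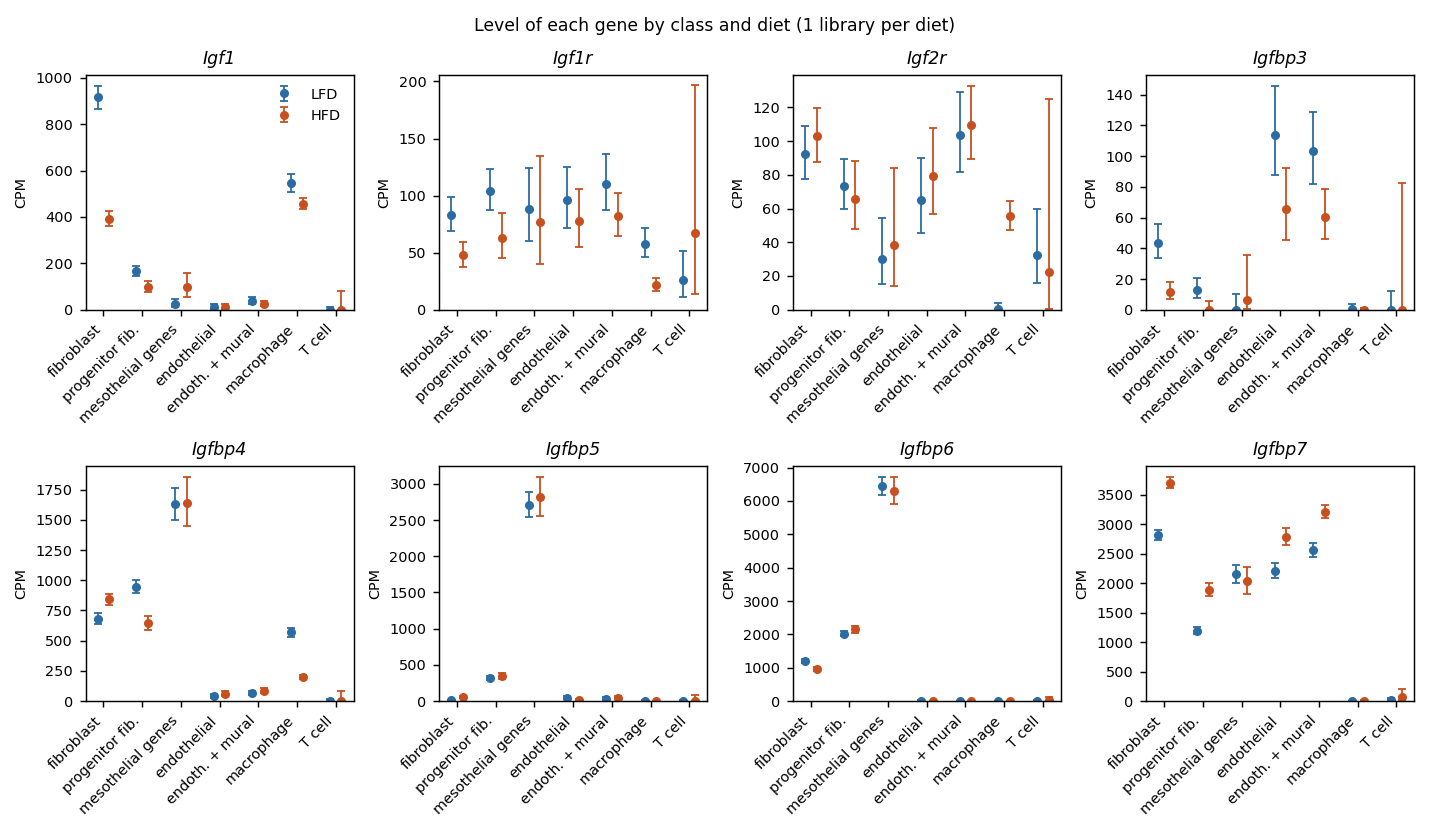
Level of each of the 8 genes (vertical axis, CPM, linear from 0) in 7 sets of barcodes (horizontal axis), with LFD in blue and HFD in orange. Points are sums over all barcodes of a set in 1 library and bars are exact Poisson 95% intervals. Igfbp5 and Igfbp6 peaked in barcodes with mesothelial genes, and the Igf1 point of fibroblasts without mesothelial genes stood near 916 CPM on LFD and 393 CPM on HFD.

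Igf1, the ligand, was counted mainly in fibroblasts and macrophages. Fibroblasts held 1341 UMIs on LFD, a level of 899.9 CPM (852 to 949), and 628 UMIs on HFD, a level of 393 CPM (363 to 425). The HFD level was 0.436 times the LFD level (0.396 to 0.480), a log2 ratio of −1.20. Progenitor fibroblasts had far less of it in both libraries, at 137 CPM (120 to 156) on LFD and 96.0 CPM (76.0 to 120) on HFD. The fibroblast class exceeded the progenitor class 6.56-fold (5.70 to 7.58) on LFD and 4.09-fold (3.23 to 5.24) on HFD. The summed Igf1 level thus differed between the 2 fibroblast classes on both diets. Single barcodes overlapped: 29.4% and 36.2% of fibroblasts had no Igf1 UMI, against 64.2% and 65.5% of progenitor fibroblasts. The progenitor level on HFD was 0.700 times that on LFD (0.535 to 0.907), lower in the same direction as in the other fibroblasts, and thinning to 1000 UMIs moved its log2 value from −0.51 to −1.24. Barcodes with mesothelial genes went the other way within this class, from 9 LFD and 14 HFD UMIs (3.47, 1.40 to 9.08), and the remaining progenitor fibroblasts had 165 and 96.7 CPM (0.586, 0.437 to 0.776). Endothelial barcodes held 7 and 6 Igf1 UMIs.

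The detection of Igf1 in single barcodes followed these sums. On LFD 70.6% of fibroblasts had an Igf1 UMI and on HFD 63.8%, at median depths of 7888 and 7546 UMIs. T cells, at median depths of 2848 and 2027 UMIs, had none. By a floor of 3 counts, 0 of 64 barcodes allows a share with an Igf1 UMI of up to 4.69% at this depth. On the same basis 0 of 19 allows up to 15.8%. The Clopper-Pearson upper limits are wider, at 5.60% and 17.6%. After each barcode was thinned to 1000 UMIs, the fibroblast shares were 38.7% and 24.4%, with 5 and 2 shallower barcodes left out. Igf1 was also unevenly spread among fibroblasts, since the 10% of barcodes with the most Igf1 UMIs held 47.1% of them on LFD and 56.2% on HFD. For Igfbp7 the same share was 26.4% and 22.9%. It had means of 20.4 and 28.6 UMIs per fibroblast, against 6.57 and 3.03 for Igf1. For Igfbp4, with means of 5.03 and 6.50 UMIs, the share was 32.5% and 30.9%. This share also depends on the mean count, so unlike means limit the comparison between genes and between libraries.

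Macrophages contained 811 Igf1 UMIs in the LFD library, at 546 CPM (509 to 585), and 1339 in the HFD library, at 458 CPM (433 to 483). As a class, they were therefore lower on HFD by a ratio of 0.838 (0.768 to 0.916). This direction did not hold in all subsets of the class. Macrophages with resident genes alone had 585 CPM (541 to 631) on LFD and 726 CPM (658 to 799) on HFD, a ratio of 1.24 (1.10 to 1.41). Macrophages with neither list had 350.2 and 489.5 CPM, a ratio of 1.40 (1.12 to 1.76). The 25 HFD barcodes with both lists were lower than the 6 on LFD, at 485 against 815 CPM, a ratio of 0.595 (0.423 to 0.850). The 104 barcodes with lipid-associated genes alone, which had no LFD counterpart, stood at 324 CPM (295 to 355), 0.446 times the resident level in the same library (0.390 to 0.511). They supplied 33.4% of the macrophage Igf1 UMIs on HFD. The class ratio also turned to log2 0.32 within the limits on genes and mitochondrial UMIs stated in the methods and to 0.25 after thinning to 1000 UMIs, so the direction of Igf1 in macrophages as a whole was not stable across these settings.

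The order of the classes for Igf1 differed between the libraries. On LFD fibroblasts exceeded macrophages 1.65-fold (1.51 to 1.80), and on HFD macrophages exceeded fibroblasts 1.16-fold (1.06 to 1.28). With both libraries combined the log2 level of fibroblasts over macrophages was 0.39, and it turned to −0.20 when the classes were set on barcodes thinned to 2000 UMIs. Fibroblasts contributed 52.8% (50.9 to 54.8%) of the Igf1 UMIs of the LFD library and 28.3% (26.4 to 30.2%) of those of the HFD library. Macrophages contributed 32.0% (30.1 to 33.8%) and 60.3% (58.3 to 62.4%), and progenitor fibroblasts 9.02% and 3.56%. These shares combine the level in a class with the number and depth of its barcodes. Over all barcodes with at least 200 genes Igf1 was at 349 CPM on LFD and 265 CPM on HFD. Igf1 (ENSMUSG00000020053) lies at chr10:87858265-87937042 on the plus strand (GENCODE M21, GRCm38).

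**Figure D2:**
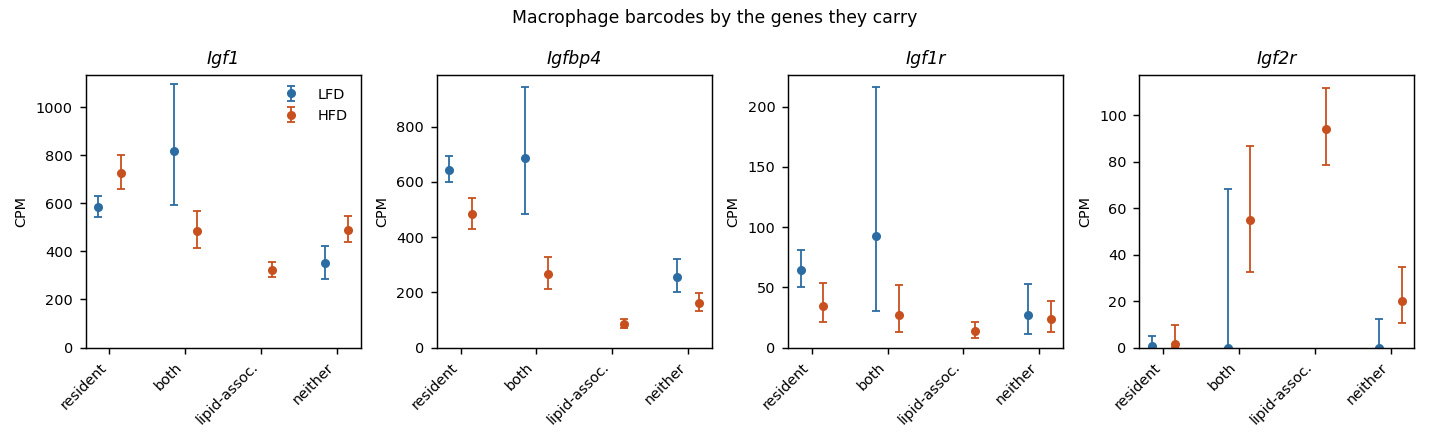
Level (vertical axis, CPM, linear from 0, with exact Poisson 95% intervals) of Igf1, Igfbp4, Igf1r and Igf2r in macrophage barcodes with resident genes, both lists, lipid-associated genes or neither (horizontal axis), LFD in blue and HFD in orange. The lipid-associated set has no LFD point because it held 0 LFD barcodes, and it had the highest Igf2r level of the 4 HFD sets, at 94.2 CPM.

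Igf1r, which encodes the signalling receptor, was found in every class at low counts. On LFD its level was 101 CPM in progenitor fibroblasts, 95.9 CPM in endothelial barcodes, 82.5 CPM in fibroblasts and 57.9 CPM in macrophages. On HFD these levels were 65.6, 77.4, 47.5 and 21.5 CPM. Ranked within each library, neighbours among the 2 fibroblast classes and the endothelial class did not differ beyond counting error, while on HFD the endothelial level was 1.63 times that of fibroblasts, 2 places below (1.08 to 2.42). Macrophages lay below fibroblasts 1.43-fold (1.07 to 1.90) on LFD and 2.21-fold (1.56 to 3.13) on HFD. All 4 levels were lower on HFD, and the interval of the endothelial ratio included 1 (0.808, 0.522 to 1.24). The ratio was 0.576 (0.427 to 0.773) in fibroblasts, 0.648 (0.468 to 0.885) in progenitor fibroblasts and 0.372 (0.264 to 0.521) in macrophages. After thinning to 1000 UMIs the log2 ratio moved from −0.80 to −0.17 in fibroblasts and from −0.31 to −1.66 in endothelial barcodes, with the sign kept.

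The macrophage value for Igf1r, from 86 LFD and 63 HFD UMIs, differed between the subsets of macrophages. Among macrophages with resident genes alone the level was 64.5 CPM on LFD and 34.7 CPM on HFD, a ratio of 0.539 (0.311 to 0.894). The lipid-associated barcodes were at 13.8 CPM (8.29 to 21.5), 0.396 times the resident level on HFD (0.2002 to 0.782). Macrophages with neither list did not differ beyond counting error, at 26.7 and 23.3 CPM from 8 and 15 UMIs (0.874, 0.348 to 2.38). Those with both lists had 92.7 and 27.4 CPM from 5 and 9 UMIs, with an interval that included 1 (0.296, 0.0891 to 1.13). An Igf1r UMI was seen in 31.3% of LFD and 16.2% of HFD macrophages, at medians of 6328 and 6915 UMIs, and in 7.81% and 10.5% of the shallower T cells (2848 and 2027 UMIs). Thinning left 5.33% and 2.19% of macrophages, with 5 and 1 barcodes left out, and 3.28% and 0% of T cells, with 3 and 1 left out. In CPM, macrophages exceeded T cells on LFD (57.9 against 26.0 CPM, 2.23, 1.08 to 5.33) and did not differ from them beyond counting error on HFD (21.5 against 67.3 CPM, 0.320, 0.104 to 1.59). The T cell values rest on 8 and 3 UMIs. Igf1r (ENSMUSG00000005533) lies at chr7:67952827-68233668 on the plus strand.

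Igf2r showed the largest difference between the libraries among the 8 genes, and it was seen in macrophages. LFD macrophages held 1 Igf2r UMI in 1486316 (0.673 CPM, 0.0170 to 3.75), and HFD macrophages held 162 UMIs, a level of 55.4 CPM (47.2 to 64.6). The ratio was 82.3, with a wide interval of 14.6 to 3269 because it rests on a single LFD UMI. With barcodes of more than 1 class kept, the log2 ratio was 3.58 in place of 6.36, so the size of the ratio depended strongly on the barcodes included. Among resident macrophages alone it was 0.98, from 1 UMI in each library. Its interval of −5.32 to 7.27 includes 6.36, so this value cannot show a difference from the class. The receptor transcript was present in 1 of 230 LFD macrophages (0.435%) and in 70 of 321 HFD macrophages (21.8%, 17.4 to 26.7%). T cells showed it in 14.1% and 5.26% of barcodes at lower depth, so the LFD macrophage share lay below that of T cells in the same library. On HFD the macrophage level in CPM did not differ from that of T cells beyond counting error (2.47, 0.436 to 98.0). The T cell value there rests on 1 UMI from 19 barcodes, so it cannot show whether HFD macrophages lay above T cells. After thinning, 0 of 225 LFD macrophages and 2.50% of HFD macrophages had an Igf2r UMI, with 5 and 1 barcodes left out. Thinned T cells had one in 0 of 61 LFD and 1 of 18 HFD barcodes.

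Within HFD macrophages, Igf2r went with the lipid-associated genes. The 104 barcodes with lipid-associated genes alone held 130 of the 162 UMIs (80.2%, 73.3 to 86.1%), at 94.2 CPM (78.7 to 112), and 53 of these barcodes had an Igf2r UMI. Barcodes with both lists had 54.9 CPM and those with neither had 20.2 CPM. Resident macrophages had 1 UMI in each library, 0.883 CPM on LFD and 1.74 CPM on HFD. The level with lipid-associated genes was 54.2 times the resident level on HFD (9.57 to 2159). The lipid-associated barcodes were deeper, with a median of 9146 UMIs against 6519, and the part of depth in the share of barcodes with a UMI was not tested beyond the thinned values.

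In the other classes Igf2r did not differ between diets beyond counting error. Fibroblasts had 91.9 CPM (77.2 to 109) on LFD and 103 CPM (87.5 to 120) on HFD, progenitor fibroblasts 64.1 and 60.7 CPM, and endothelial barcodes 65.1 and 79.4 CPM. The 3 ratios, 1.12 (0.884 to 1.41), 0.948 (0.664 to 1.34) and 1.22 (0.760 to 1.96), had intervals that included 1. The endothelial log2 ratio of 0.29 was 1.44 within the limits stated in the methods, and after thinning to 1000 UMIs the progenitor value turned from −0.08 to 0.56 and the fibroblast value from 0.16 to −0.29. Endothelial-mural barcodes had 103 and 109 CPM. On LFD the macrophage level was lower than in each of these classes, and on HFD it no longer differed from that of progenitor fibroblasts beyond counting error (1.10-fold, 0.783 to 1.52).

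Igf2r (ENSMUSG00000023830) lies at chr17:12682406-12769664 on the minus strand, and the noncoding RNA gene Airn lies across its start on the plus strand at chr17:12741311-12860136. In mice Airn is known to silence Igf2r on the paternal chromosome. Whether counting used the strand is not given in the sources used here, so UMIs in the shared stretch could have been given to either gene. Airn had 1 UMI in LFD macrophages and 22 in HFD macrophages, of which 20 were in barcodes with lipid-associated genes alone. In fibroblasts Airn had 81 and 76 UMIs. The part of Airn in the macrophage Igf2r counts was not tested.

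The promoter of Igf2r is shown because its transcript differed most between the libraries, and that of Igfbp4 because it differed in opposite directions between classes. The sequences are the 250 bases before the gene start in RefSeq (GRCm38.p6), which matched 8 of 8 genes. Each was searched on both strands for TCACGTGA, TATAAA and GGGCGG, motifs chosen with results known. TCACGTGA contains the E-box CACGTG and is the core of the element described at many lysosomal genes. It occurred 2 times in the Igf2r promoter, starting 49 and 8 bases before the gene start, and in 0 of the other 7 promoters. Of 32851 promoters of this length in the table, 258 (0.785%) held it at least once and 11 (0.0335%) at least 2 times. TATAAA occurred in the Igfbp4 promoter, 28 bases before the start, and in that of Igfbp6, 148 bases before the start on the other strand, and in 12.4% of all promoters. GGGCGG was found in the promoters of Igf1r (2 times), Igf2r (3 times) and Igfbp7 (4 times), and in 32.7% of all promoters. Capitals mark TCACGTGA in Igf2r at chr17:12769707-12769956, minus strand, and TATAAA in Igfbp4 at chr11:99040994-99041243, plus strand. A match is a description of letters, not a site or a cause.
Igf2r: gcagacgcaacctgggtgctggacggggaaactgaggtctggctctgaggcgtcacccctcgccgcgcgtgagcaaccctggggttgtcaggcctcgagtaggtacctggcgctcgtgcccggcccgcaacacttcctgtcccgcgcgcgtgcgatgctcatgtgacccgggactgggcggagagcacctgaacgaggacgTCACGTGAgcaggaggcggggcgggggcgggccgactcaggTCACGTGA
Igfbp4: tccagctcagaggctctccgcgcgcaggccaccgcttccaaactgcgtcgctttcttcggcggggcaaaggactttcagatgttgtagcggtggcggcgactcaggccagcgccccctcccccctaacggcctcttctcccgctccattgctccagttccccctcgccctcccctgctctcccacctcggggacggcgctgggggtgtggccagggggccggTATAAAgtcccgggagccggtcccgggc

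**Figure D3:**
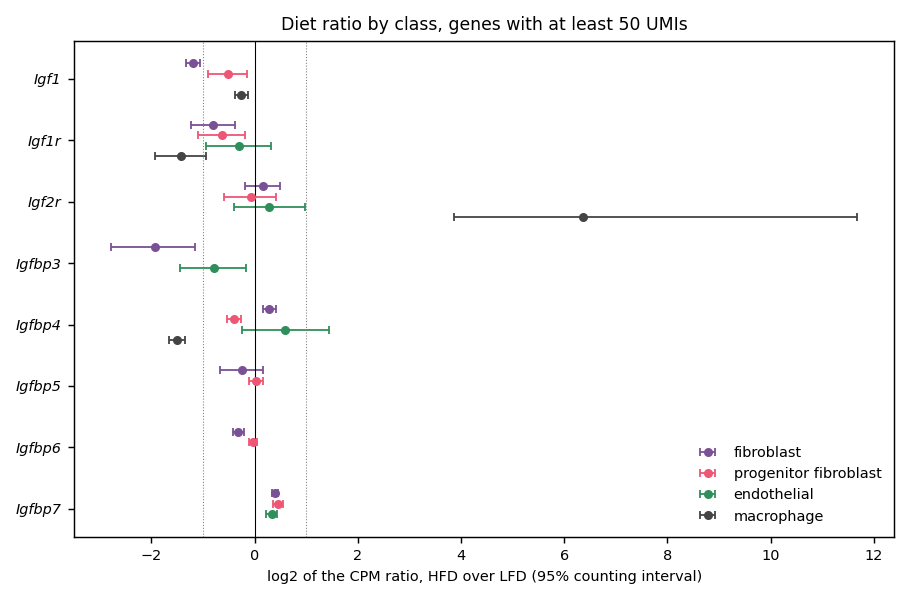
Log2 of the CPM ratio HFD over LFD (horizontal axis, with exact conditional 95% intervals) for each gene (vertical axis) in fibroblasts, progenitor fibroblasts, endothelial barcodes and macrophages, where the gene had at least 50 UMIs. Dotted lines mark 2-fold differences. Igf2r in macrophages stands alone at 6.36, and the 3 Igfbp7 points lie between 0.33 and 0.45.

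Igfbp3, the first of the binding proteins, was higher in endothelial barcodes than in the fibroblast classes or macrophages. Endothelial barcodes held 63 UMIs on LFD, 114 CPM (87.6 to 146), and 34 on HFD, 65.8 CPM (45.6 to 92.0), a ratio of 0.578 (0.369 to 0.890). Endothelial-mural barcodes had a similar pair of levels, 103 and 60.6 CPM, with a ratio of 0.586 (0.409 to 0.836). Endothelial barcodes also carried the haemoglobin genes Hba-a1 and Hbb-bs (4749 and 6289 CPM) and adipocyte genes led by Cidec (261 and 87.1 CPM), both above their levels in fibroblasts and macrophages. In the endothelial class 1 LFD barcode held 22 of the 63 UMIs (34.9%). The endothelial log2 ratio of −0.79 turned to 0.51 after thinning to 1000 UMIs and to 0.21 within the limits stated in the methods, so its direction is not settled by these counts. An Igfbp3 UMI was found in 25.5% of LFD and 20% of HFD endothelial barcodes, at medians of 4318 and 3156 UMIs, and in 0 of 64 and 0 of 19 T cells. Thinned to 1000 UMIs the endothelial shares were 8.79% and 10.4%, with 7 and 19 barcodes left out.

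In fibroblasts Igfbp3 was confined to few barcodes. The class had 64 UMIs on LFD (43.0 CPM, 33.1 to 54.8) and 18 on HFD (11.3 CPM, 6.67 to 17.8), a ratio of 0.262 (0.146 to 0.448). These came from 12 of 204 LFD and 6 of 207 HFD barcodes. Progenitor fibroblasts held 17 and 1 UMIs, a ratio of 0.119 (0.00286 to 0.762), and macrophages 1 and 0. The order of classes, endothelial above fibroblast above progenitor fibroblast, was the same in both libraries, and each step exceeded counting error. Within the limits stated in the methods the combined log2 level of endothelial barcodes over fibroblasts was 0.41 in place of 1.77. Igfbp3 (ENSMUSG00000020427) lies at chr11:7206086-7213923 on the minus strand.

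Igfbp4 was abundant in both fibroblast classes and in macrophages, and its diet ratio differed among them. Fibroblasts had 689 CPM (647 to 732) on LFD and 842 CPM (797 to 888) on HFD, a ratio of 1.22 (1.13 to 1.33). Progenitor fibroblasts had 1092 CPM (1043 to 1144) and 829.7 CPM (769 to 894), a ratio of 0.760 (0.695 to 0.830). The progenitor class thus exceeded the fibroblast class 1.59-fold (1.47 to 1.71) on LFD, and the classes did not differ beyond counting error on HFD (0.986-fold, 0.898 to 1.08). Without mesothelial-gene barcodes the progenitor level was 1.39 times the fibroblast level on LFD (1.27 to 1.51) and 0.766 times on HFD (0.686 to 0.855), so the order was then opposite in the 2 libraries. Barcodes with mesothelial genes had the highest levels and no difference between diets, at 1629 and 1641 CPM (1.01, 0.866 to 1.17). Progenitor fibroblasts without them had 945 and 644 CPM, a ratio of 0.682 (0.610 to 0.761).

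Macrophages showed the larger drop in Igfbp4, from 844 UMIs and 568 CPM (530.2 to 607) on LFD to 588 UMIs and 201 CPM (185 to 218) on HFD. The ratio was 0.354 (0.318 to 0.394), a log2 value of −1.50. Resident macrophages carried most of it on LFD, 730 of the 844 UMIs (86.5%), and their level was 645 CPM on LFD and 483 CPM on HFD (0.749, 0.650 to 0.861). The lipid-associated barcodes had 85.5 CPM (0.177 of the resident level, 0.142 to 0.220), and those with neither list had 257 and 163 CPM. The class ratio of 0.354 was thus lower than the resident ratio of 0.749, and the part of the mixture of subsets in that difference was not tested. An Igfbp4 UMI was seen in 84.3% of LFD and 62.6% of HFD macrophages, against 1 of 64 and 0 of 19 T cells, and in 40.9% and 23.8% after thinning, with 5 and 1 barcodes left out. Endothelial barcodes had 22 and 31 UMIs. Igfbp4 (ENSMUSG00000017493) lies at chr11:99041244-99054392 on the plus strand.

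Igfbp5 and Igfbp6 marked the progenitor side of the fibroblast gradient and, more strongly, the barcodes with mesothelial genes. Igfbp5 had 1320 UMIs in LFD and 666 in HFD progenitor fibroblasts, levels of 790.5 CPM (748 to 834) and 809 CPM (749 to 873). The ratio of 1.02 (0.931 to 1.12) showed no difference beyond counting error. Of these UMIs, 896 (67.9%) and 437 (65.6%) lay in the 25 and 12 barcodes with mesothelial genes. Over both fibroblast classes such barcodes reached 2715 and 2818 CPM, and the remaining progenitor fibroblasts had 318 and 341 CPM. The high Igfbp5 level of the progenitor class was therefore mostly that of a small set of barcodes with mesothelial transcripts.

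Fibroblasts outside the progenitor class had little Igfbp5, at 68.5 CPM on LFD and 57.5 CPM on HFD, and the UMIs came from 10 and 16 barcodes. On LFD 1 barcode, which carried mesothelial genes, held 78 of the 102 UMIs (76.5%). Without barcodes with mesothelial genes the class held 13 LFD UMIs, 8.88 CPM, and 91 HFD UMIs, 57.1 CPM, a ratio of 6.43 (3.58 to 12.5) in which 1 HFD barcode held 30 UMIs. An Igfbp5 UMI was present in 44.5% of LFD and 41.7% of HFD progenitor fibroblasts, at median depths of 9420 and 9556 UMIs, against 0 of 64 and 0 of 19 T cells. Thinned to 1000 UMIs these shares were 26.0% and 23.8%, with 0 barcodes left out. Before thinning, 64.9% of LFD and 66.7% of HFD progenitor fibroblasts without mesothelial genes had no Igfbp5 UMI. The 10% of them with the most Igfbp5 UMIs held 70.0% and 67.7% of those UMIs. In the endothelial class, 18 of the 24 LFD UMIs came from 2 barcodes with lymphatic genes, and on HFD the 2 barcodes with lymphatic genes held 0 of the 6 UMIs of the class. Macrophages held 5 UMIs on LFD and 0 on HFD. There, 0 of 321 barcodes allows a share with a UMI of up to 0.935% by the floor of 3 counts (Clopper-Pearson 1.14%). Igfbp5 (ENSMUSG00000026185) lies at chr1:72857932-72874884 on the minus strand.

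Among progenitor fibroblasts Igfbp6 was counted in 173 of 173 LFD and 84 of 84 HFD barcodes. T cells had it in 3.12% and 5.26% of barcodes, and after thinning the progenitor shares were 88.4% and 86.9%. The level was 2979.8 CPM (2898 to 3064) on LFD and 2919 CPM (2803 to 3038) on HFD, a ratio of 0.980 (0.933 to 1.03). Barcodes with mesothelial genes had 6444 and 6311 CPM, and 1 HFD barcode held 361 UMIs, 15.0% of the class. Progenitor fibroblasts without mesothelial genes had 2018 and 2150.1 CPM (1.07, 0.999 to 1.14). In the remaining fibroblasts Igfbp6 was lower on HFD, at 1210.0 and 975 CPM (0.806, 0.752 to 0.863). Endothelial barcodes held 4 and 2 UMIs and macrophages 6 and 4, so Igfbp6 separated fibroblasts from the other classes in both libraries. Igfbp6 (ENSMUSG00000023046) lies at chr15:102144362-102149511 on the plus strand.

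Igfbp7 was counted in fibroblasts and vessels, and it was higher on HFD in both fibroblast classes, endothelial barcodes and endothelial-mural barcodes. Fibroblasts had 2798 CPM (2714 to 2884) on LFD and 3701 CPM (3608 to 3797) on HFD, a ratio of 1.32 (1.27 to 1.38). In endothelial barcodes the levels were 2211 CPM (2089 to 2338) and 2784 CPM (2642 to 2932), a ratio of 1.26 (1.17 to 1.36), and in endothelial-mural barcodes 2565 and 3213 CPM (1.25, 1.18 to 1.33). The endothelial-mural set held 0 UMIs of lymphatic genes on LFD and 547 on HFD, all of them in 1 barcode. Progenitor fibroblasts had 1401 CPM (1344 to 1459) and 1913 CPM (1820 to 2010), a ratio of 1.37 (1.28 to 1.46). Fibroblasts exceeded endothelial barcodes on LFD (1.27-fold, 1.19 to 1.35) and on HFD (1.33-fold, 1.25 to 1.41), and endothelial barcodes exceeded progenitor fibroblasts 1.58-fold and 1.46-fold. Barcodes with mesothelial genes did not share the higher HFD level, at 2150.0 and 2033 CPM (0.946, 0.827 to 1.08). Within the limits stated in the methods, which left 22 LFD and 16 HFD progenitor fibroblasts, the log2 ratio of that class was −0.43 in place of 0.45. Macrophages held 6 and 21 UMIs, 4.04 and 7.18 CPM, below the T cell values of 26.0 and 67.3 CPM from 8 and 3 UMIs. The few mural barcodes went the other way, with 51 and 22 UMIs, 2927 and 2357 CPM. Igfbp7 (ENSMUSG00000036256) lies at chr5:77349240-77408041 on the minus strand.

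A gene was called past 2-fold in a class when it had at least 50 UMIs there over both libraries and an HFD over LFD ratio of at least 2 or at most the inverse. In fibroblasts all 8 genes reached 50 UMIs, 0 were past 2-fold higher and 2 were past 2-fold lower, Igf1 and Igfbp3. Igfbp3 reached 50 UMIs there through the LFD library alone. Of 6415 genes counted there, 1.5% were past 2-fold higher and 2.04% past 2-fold lower. In progenitor fibroblasts 7 genes were counted, all but Igfbp3, and 0 were past 2-fold in either direction, against 1.02% higher and 1.74% lower of 5985 genes. In endothelial barcodes 5 genes were counted (Igf1r, Igf2r, Igfbp3, Igfbp4 and Igfbp7) and 0 were past 2-fold, against 0.736% higher and 1.5% lower of 3397 genes. In macrophages 4 genes were counted, with Igf2r past 2-fold higher and Igf1r and Igfbp4 past 2-fold lower, against 5.36% higher and 5.9% lower of 7158 genes. Igf2r reached 50 UMIs in macrophages through the HFD library alone. The median log2 ratio of the genes counted was −0.28, −0.08, 0.29 and −0.84 in fibroblasts, progenitor fibroblasts, endothelial barcodes and macrophages. For all genes the medians were −0.01, 0.00, 0.01 and −0.01.

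The wider IGF pathway list held 45 genes: ligands, receptors, binding proteins, proteases, the growth hormone axis, downstream signalling and the CCN proteins, which share a domain with IGF binding proteins. In fibroblasts 29 of them reached 50 UMIs, 1 was past 2-fold higher and 4 were past 2-fold lower, with a median log2 ratio of −0.19, where 1.5% and 2.04% of all genes were. The gene that was higher was Ctgf, a matricellular CCN protein, with 13 and 41 UMIs (ratio 2.94, 1.54 to 5.98). Those that were lower were Igf1, Igfbp3, the CCN gene Wisp2 (0.477, 0.272 to 0.815) and Pappa, which encodes the protease of IGFBP4 (0.490, 0.270 to 0.864). In progenitor fibroblasts 26 genes were counted, with 1 higher and 2 lower (1.02% and 1.74% of all genes) and a median of −0.07. Ctgf was again higher (2.37, 1.53 to 3.70), and Wisp2 (0.210, 0.0740 to 0.485) and Pik3r1, a regulatory subunit of PI3-kinase (0.473, 0.330 to 0.665), were lower, both of which reached 50 UMIs through the LFD library alone. Ctgf and Wisp2 thus differed in opposite directions in both fibroblast classes.

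In endothelial barcodes 14 list genes were counted, 0 were higher and 1 was lower, Ghr, the growth hormone receptor (0.451, 0.267 to 0.738), which reached 50 UMIs through the LFD library alone, and the median was 0.10. Of all genes 0.736% were higher and 1.5% lower there. In macrophages 16 were counted, 1 was higher and 4 were lower, with a median of −0.53, against 5.36% and 5.9% of all genes. Besides Igf2r, Igf1r and Igfbp4 these were Foxo1, a transcription factor held out of the nucleus by AKT (0.421, 0.259 to 0.680), and Stat5b, which relays the growth hormone signal (0.457, 0.310 to 0.671). The macrophage median thus lay below that of all genes, and no test of the list was made.

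Genes with the most UMIs of their role over both libraries, a count that is no measure of their relative levels, included Igf1, Igf2r, Igfbp7, Htra1, Jak2 and Cyr61. Of the other ligands, Igf2 had 8 UMIs on LFD and 2 on HFD, and Ins1 and Ins2 had 0. Htra1, a secreted serine protease that can cleave IGF binding proteins, was at 266 CPM in LFD and 378 CPM in HFD fibroblasts (1.42, 1.25 to 1.62), and showed no such difference in progenitor fibroblasts, at 317 and 329 CPM (1.04, 0.893 to 1.20). Igfbp2, which was not among the 8 genes and was picked after its values were seen, had 90 and 31 UMIs in progenitor fibroblasts. Of these 89 and 31 lay in barcodes with mesothelial genes, as most Igfbp5 UMIs did.

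The genes most like each of the 8 were sought over 10 values, 5 classes in 2 libraries, among 6634 genes by Pearson correlation of log2(CPM + 1). These points share libraries and classes, and the mural values rest on 5 and 6 barcodes. The closest 3 were Trf (r = 0.96), Emp3 (0.94) and Pmp22 (0.93) for Igf1, and Zbtb4 (0.97), Zfp36l1 (0.94) and Usp34 (0.93) for Igf1r. For Igf2r they were Pdcd6 (0.91), Aldoa (0.90) and Capns1 (0.89), the lowest values of the 8 genes. For Igfbp3 they were Marc2 (0.95), Tmem204 (0.94) and Ddit4 (0.94), and for Igfbp4 Rnase4 (0.94), Rpl10 (0.93) and Cebpb (0.93). For Igfbp5 they were St3gal2 (0.93), Tnks1bp1 (0.93) and Procr (0.92). The highest values were those of Igfbp6, with Sdc2 (0.98), Aebp1 (0.97) and Pla1a (0.97), and of Igfbp7, with Nfib, Sparc and Col4a1 (each 0.99).

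Across single fibroblasts without mesothelial genes, thinned to 1000 UMIs, Igf1, Igf2r, Igfbp4, Igfbp6 and Igfbp7 hardly varied together. The Spearman correlations of their pairs ranged from −0.12 to 0.19 over 195 LFD barcodes and from −0.14 to 0.21 over 204 HFD barcodes. The highest was Igf1 with Igfbp7 on LFD (0.19, against 0.00 on HFD) and Igf1 with Igfbp4 on HFD (0.21, against 0.02 on LFD). In macrophages Igf1 and Igfbp4 gave 0.08 over 225 LFD and 0.01 over 320 HFD barcodes. Counts this sparse lower any correlation, and these values are a description of single barcodes of 1 library each.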

How the data were processed

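SVCs of eWAT were measured in 1 LFD and 1 HFD library. Groups follow the sample characteristics, since the treatment protocol text names a low-fat diet for both. The deposited counts are whole UMIs; according to the submitters' notes reads were aligned to mm10, and the file headers name Cell Ranger 3.0.2. Genes were matched to GENCODE M21 positions (GRCm38) by Ensembl ID. The members and lists were chosen with earlier results of these data known. Barcodes with at least 200 genes were classed on raw UMIs (Dcn at least 10, progenitor genes 3, endothelial 3, mural 5, C1q genes 10, T cell genes 3, resident genes 3, lipid-associated genes 5). The methods' limits (200 to 2500 genes, under 5% mitochondrial UMIs) left 294 LFD and 352 HFD barcodes and served as an alternative. Doublets were kept, and Scrublet, which marked 20 and 26 barcodes, gave another. Levels are UMIs per 1000000 UMIs of the class (CPM) with exact Poisson intervals, shares have Clopper-Pearson intervals and ratios conditional binomial ones. A floor of 3 counts gives the limit for a UMI count of 0. All 8 members were named, together with list genes past 2-fold with at least 50 UMIs and an interval without 1, the top gene of each role (1 of them is not reported here) and the 3 most alike genes per member. Other alternatives changed the thresholds, weighting, scaling, thinning (1000 or 500 UMIs) and single barcodes. Splits by mesothelial genes, endothelial-mural barcodes and resident macrophages were added after seeing the data. The ratio method was tested on simulated data with independent Poisson counts, which cannot show the effect of uneven spread among barcodes. Clustering, integration and differential tests were not used here. The work used Python 3.11.15, numpy 2.4.6, scipy 1.17.1, scanpy 1.11.5 and matplotlib 3.10.9.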

Additional observations from a re-analysis of the deposited data

Results flagged for a closer look

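Igfbp4 drew attention because its HFD over LFD log2 ratio had opposite signs in different classes. It was 0.29 in fibroblasts, −0.40 in progenitor fibroblasts and −1.50 in macrophages, and each counting interval left out 0. The difference between the classes was not tested, since each diet had 1 library. Under the alternatives the fibroblast value stayed above 0 (0.06 to 0.36, 13 of 13), the progenitor value below 0 (−0.82 to −0.37, 13 of 13) and the macrophage value below 0 (−1.50 to −0.42, 14 of 14).

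With 1 library per diet, all differences are between libraries, and animals, dissociation and diet cannot be told apart. The classes are thresholds on counts and depend on depth. Igf2r in macrophages rests on 1 LFD UMI, Igfbp3 on few barcodes, and the progenitor class on HFD on 84 barcodes. Intervals leave out variation between animals and between barcodes. UMIs were read at the 3′ end, so transcript isoforms were not distinguished.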

How the results depend on the processing

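Values here are log2, either HFD over LFD (diet) or 1 class over another with both libraries combined (level), and the cause of each shift was not tested. Under the methods' limits the diet value of Igf1 in macrophages turned from −0.25 to 0.32, of Igfbp3 in endothelial barcodes from −0.79 to 0.21 and of Igfbp7 in progenitor fibroblasts from 0.45 to −0.43. There the diet values of Igf2r in fibroblasts (−0.18), Igfbp4 in macrophages (−1.32) and Igfbp6 in progenitor fibroblasts (−0.23) moved as well. So did the levels of Igf1 in fibroblasts over macrophages (0.81), Igf1r in progenitor fibroblasts over endothelial barcodes (0.75), Igfbp3 in endothelial barcodes over fibroblasts (0.41) and Igfbp7 in fibroblasts over endothelial barcodes (0.69). Progenitor over other fibroblasts gave 0.81 for Igfbp4, 4.42 for Igfbp5 and 0.87 for Igfbp6, and the progenitor share gave −0.72. Keeping barcodes of more than 1 class gave a diet value of 3.58 for Igf2r in macrophages, and levels of 0.018 for Igf2r and 0.23 for Igfbp7 in fibroblasts over endothelial barcodes and 1.55 for Igfbp6 in progenitor over other fibroblasts. Without Scrublet doublets the Igfbp5 level of progenitor over other fibroblasts was 4.37. Thresholds multiplied by 2 gave a diet value of 0.057 for Igfbp6 in progenitor fibroblasts and levels of 0.25 for Igf1 in fibroblasts over macrophages, 3.03 for Igfbp5 in progenitor over other fibroblasts and 0.33 for Igfbp7 in fibroblasts over endothelial barcodes. With the class rule on barcodes thinned to 2000 UMIs, Igf1 in fibroblasts over macrophages turned from 0.39 to −0.20. That rule also gave diet values of −0.82 for Igfbp4 in progenitor fibroblasts, −1.25 for Igfbp4 in macrophages and 0.54 for Igfbp7 in fibroblasts, and a fibroblast share of −0.33. Its levels of progenitor over other fibroblasts were 0.22 (Igfbp4), 1.69 (Igfbp5) and 0.76 (Igfbp6), and Igfbp7 in fibroblasts over endothelial barcodes was 0.055. The mean over barcodes gave diet values of −0.051 for Igf1 and −1.15 for Igfbp4 in macrophages and −0.11 for Igfbp3 in endothelial barcodes. Its levels were 0.23 for Igf1 in fibroblasts over macrophages, 0.30 for Igfbp4 and 1.15 for Igfbp6 in progenitor over other fibroblasts, and 0.62 for Igfbp7 in fibroblasts over endothelial barcodes. Without the barcode richest in the gene, progenitor fibroblasts had diet values of −0.16 for Igfbp5 and −0.17 for Igfbp6, and levels over other fibroblasts of 4.601 and 1.38. Thinning to 1000 UMIs turned the diet value of Igf1 in macrophages to 0.25 and of Igfbp3 in endothelial barcodes to 0.51. It gave diet values of −1.18 for Igf1r and −0.64 for Igfbp4 in progenitor fibroblasts, −0.29 for Igf2r and 0.61 for Igfbp7 in fibroblasts and −1.05 for Igfbp4 in macrophages. Its levels were 0.14 for Igf1 in fibroblasts over macrophages, 2.83 for Igf2r and 0.57 for Igfbp7 in fibroblasts over endothelial barcodes, and 0.49, 4.33 and 1.26 for Igfbp4, Igfbp5 and Igfbp6 in progenitor over other fibroblasts. The next 3 settings were added after seeing the data. Without mesothelial-gene barcodes, progenitor fibroblasts had diet values of −0.55 for Igfbp4 and 0.091 for Igfbp6 and levels over other fibroblasts of 0.14, 3.26 and 0.94 for Igfbp4, Igfbp5 and Igfbp6. With endothelial-mural barcodes counted as endothelial, fibroblasts over endothelial barcodes gave 0.062 for Igf2r and 0.25 for Igfbp7. Among resident macrophages alone the diet values were 0.31 for Igf1, −0.89 for Igf1r, 0.98 for Igf2r (from 1 UMI in each library) and −0.42 for Igfbp4. Thinning to 1000 UMIs also gave diet values of −1.24 for Igf1 in progenitor fibroblasts and 2.51 for Igfbp4 in endothelial barcodes, and the methods' limits gave −1.35 for Igf1r and −3.28 for Igfbp5 in fibroblasts. Igfbp5 in fibroblasts was 1.79 without Scrublet doublets, 1.27 without its richest barcode and 2.68 without mesothelial-gene barcodes, against −0.25. The diet values of Igf1 in fibroblasts (−1.46 to −0.87) and Igf1r in macrophages (−1.43 to −0.89) kept their sign throughout. With a minimum of 20 UMIs the pathway list gave 2 genes past 2-fold higher and 3 lower in progenitor fibroblasts and 0 and 2 in endothelial barcodes, against 2.29% and 4.06%, and 2.56% and 3.41%, of all genes. With no minimum and 0.5 UMIs added it gave 4 higher and 9 lower of 40 in fibroblasts (10.7% and 14.7% of all genes), 5 and 5 of 40 in progenitor fibroblasts (12.7% and 9.28%), 3 and 8 of 36 in endothelial barcodes (12.8% and 15.3%) and 3 and 10 of 28 in macrophages (9.77% and 15.0%). Igf2r in macrophages gave no value under the methods' limits, without Scrublet doublets, without its richest barcode or after thinning to 1000 UMIs, nor did Igf2r in endothelial barcodes after thinning. Leaving out 1 library at a time was not possible with 1 per diet.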

Other observations

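Proliferation genes stood higher on HFD in fibroblasts and macrophages. Mki67 and Top2a summed to 1 UMI in LFD fibroblasts (0.671 CPM) and 75 UMIs in HFD fibroblasts (46.9 CPM), and to 112 and 215 CPM in macrophages. In T cells they went the other way, from 73 UMIs on LFD (237 CPM) to 1 on HFD (22.4 CPM). Barcodes of no class had 167 and 164 CPM. The 5 fibroblast markers, led by the collagen gene Col3a1, summed to 5973 CPM in LFD and 12530 CPM in HFD progenitor fibroblasts. Pdgfra, one of the 5, went the other way, at 289 and 221 CPM there and 458 and 320.2 CPM in the other fibroblasts. These differences were not tested, since each diet had 1 library.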
